A study of Mus musculus with 21 samples.

Results

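Retinoic acid synthesis, its receptors and its response were followed through 10 genes: the retinol importer Stra6, the retinol dehydrogenase Rdh10, the retinal dehydrogenases Aldh1a1 and Aldh1a2, the retinoic acid hydroxylase Cyp26b1, the binding proteins Crabp1 and Crabp2, the receptors Rara and Rarg, and the responsive gene Stra8. They were chosen by name from the 32643 genes of the deposited table, and all 10 were found once and had enough reads to be tested among 20254 genes. Gene positions below are those of the deposited table (mm10), and in the GENCODE annotation of that build no other gene has exons that overlap theirs. RNA came from whole testes of 21 mice at postnatal day 10, a labelled mix of 129sv and C57Bl6 strains, with 1 library per animal. Knockouts (KO) were FXRα-/-, FXRα being a nuclear receptor for bile acids (gene Nr1h4), and the others were wild type (WT); the labels name no other allele. The groups were KO with bisphenol A (BPA, an estrogenic component of some plastics; T25, T83, T117), WT with BPA (T60, T75, T61, T74), KO with the plant sterol stigmasterol (T10, T15, T93), WT with stigmasterol (T78, T98, T118, T119), KO with vehicle (T1, T90, T110) and WT with vehicle (T66, T71, T79, T81). Values of a group are given in this order of its animals. The dose, route and litter of an animal are not stated. The p-values measure the spread between these animals.

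Retinol enters cells through STRA6, is oxidised to retinal by RDH10 and to retinoic acid by the ALDH1A enzymes, and retinoic acid is removed by CYP26B1. CRABP proteins carry it in the cytoplasm, and receptors such as RARA and RARG, paired with RXR partners, change transcription when it binds. In the mouse testis retinoic acid drives spermatogonia to differentiate and germ cells to enter meiosis, and Stra8 is the classical germ cell gene that it induces.

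Promoter letters are shown for the response gene Stra8 and for both receptors, because receptor dimers recognise repeats of a short half-site and receptor genes can themselves be targets. RefSeq windows (GRCm38.p6, 250 bases before and 50 after a start site) matched 8 of the 10 genes, with 16 windows in all. The sequences below are the 250 bases before the start site, 5′ to 3′ on the gene's strand, with half-sites in capitals. The half-sites searched, on either strand, were AGGTCA and its variants: AGTTCA as the first variant, GGGTCA as the second variant and GGTTCA as the third variant. The Rara window is 1 of 4 and the Rarg window 1 of 2, each taken because it held matches.
Stra8 (chr6:34920698-34920947, plus strand): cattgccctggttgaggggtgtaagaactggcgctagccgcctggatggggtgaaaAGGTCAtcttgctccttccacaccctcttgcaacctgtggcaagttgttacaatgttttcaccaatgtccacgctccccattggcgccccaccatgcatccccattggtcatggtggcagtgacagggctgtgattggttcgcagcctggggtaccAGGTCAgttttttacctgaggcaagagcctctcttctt
Rara (chr11:98939461-98939710, plus strand): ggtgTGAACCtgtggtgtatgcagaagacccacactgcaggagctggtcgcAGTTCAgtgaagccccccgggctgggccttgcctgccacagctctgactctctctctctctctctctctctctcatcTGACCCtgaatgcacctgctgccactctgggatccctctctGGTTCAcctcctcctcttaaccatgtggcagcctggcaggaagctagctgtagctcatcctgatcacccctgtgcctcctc
Rarg (chr15:102257523-102257772, minus strand): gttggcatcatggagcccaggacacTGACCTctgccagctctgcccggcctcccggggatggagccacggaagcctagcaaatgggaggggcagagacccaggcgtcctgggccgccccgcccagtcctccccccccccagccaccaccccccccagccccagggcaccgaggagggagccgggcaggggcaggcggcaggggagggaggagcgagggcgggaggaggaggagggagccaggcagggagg

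The Stra8 window held AGGTCA on its own strand with first bases at -194 and -38, counted from the start site. The Rara window held 4 half-sites, starting at -246, -199, -122 and -81, and the Rarg window held 1, at -225 on the opposite strand. Half-sites occurred in 6 of the 16 windows, against 43.7% of all 32851 windows of that length, so their presence does not set these windows apart. The 6 windows belonged to 5 of the 8 genes, a count that the share of windows does not match, since some genes have several windows. No window of the 8 genes held 2 half-sites as a direct repeat spaced by 1, 2 or 5 bases, arrangements found in 0.222%, 0.268% and 0.0974% of all windows. These matches describe the letters of the windows and are not evidence of binding.

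The libraries held 35459523 to 61498855 counted reads, and the biological coefficient of variation between replicate animals was 19.2%. Nr1h4 was low in every library, at 0.172 to 0.492 CPM (counts scaled to library size) in KO and 0.241 to 0.868 CPM in WT testes, with a log2 fold change of -0.78 ± 0.23 averaged over treatments (SE, edgeR quasi-likelihood test, adjusted p = 0.0303). The ranges overlapped and the deleted part of the gene was not stated, so the count did not check each animal's label. Sertoli markers (sums below) and germ cell markers, summing to 931 to 1480 CPM in KO and 697 to 1500 CPM in WT, were present in every library labelled testis. Libraries also carried varying amounts of epididymal transcripts: Cdh16, an epididymal and renal cadherin, was at 10 CPM or more in 6 of 9 KO and 3 of 12 WT libraries (KO animals T1, T10, T83, T93, T110 and T117, WT animals T60, T75 and T81). Liver markers summed to 782 CPM in WT BPA animal T61, and fat markers to 93.4 CPM in KO BPA animal T117. In these bulk samples fewer cells of a type and less RNA per cell cannot be told apart.

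Per kilobase of gene, the 10 levels ran from Aldh1a1, the highest, to Crabp2, the lowest. The authors' normalized count per kb averaged 16000 ± 2090 for Aldh1a1 (SD, n = 21 here and for the other genes of this paragraph), which was higher than the next gene in 21 of 21 libraries. Stra8 followed at 4670 ± 1540, with the widest spread among the genes of the middle range. Stra6 at 3550 ± 579 and Crabp1 at 3470 ± 612 were not separable, since Stra6 was the higher in 10 of 21 libraries. Cyp26b1 averaged 2980 ± 390, Rarg 2580 ± 340, Rara 2050 ± 283 and Aldh1a2 1800 ± 467 normalized counts per kb, and each pair of neighbours in this stretch overlapped, with the upper gene higher in 14 to 18 libraries. Rdh10 stood apart at 564 ± 87.2 and Crabp2 at 87.1 ± 40.4 normalized counts per kb, both below the preceding gene in all 21 libraries. Crabp2 therefore rested on few reads, 22 to 156 per library, whereas the least-read of the other 9 genes had at least 1050.

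**Figure D1:**
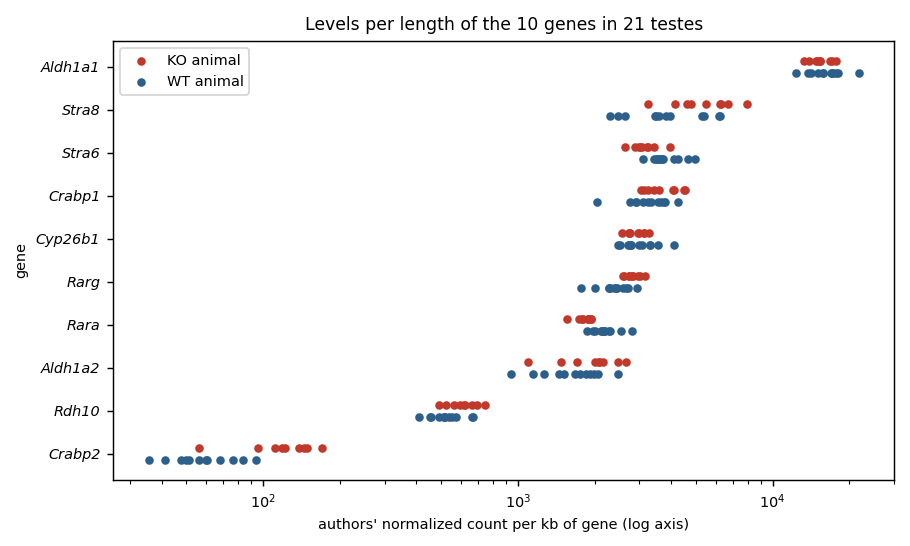
Level of each of the 10 genes as the authors' normalized count per kb of gene (log axis), with 1 point per animal, 9 KO (red) and 12 WT (blue). Aldh1a1 lies above and Crabp2 below all other genes in all 21 libraries, while Stra6 and Crabp1 overlap.

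Between genotypes, 4 of the 10 genes were called when KO was set against WT averaged over the 3 treatments (adjusted p under 0.05), Crabp2 and Rarg higher in KO testes and Rara and Stra6 lower. In that comparison 13.9% of all tested genes were called, 6.85% higher and 7.07% lower. The median absolute log2 fold change was 0.24 for the 10 genes and 0.12 for all genes tested, and no member separated all 9 KO from all 12 WT animals, as 1.05% of all genes did. Of the single treatments, stigmasterol gave 1 call, Crabp2 (7.21% of all genes were called), whereas vehicle (2.92%) and BPA (0.859%) gave none among the 10. With unadjusted p under 0.05 there were 3 members in vehicle (20.9% of all genes) and 1 in BPA (8.16%), and DESeq2 called 2 members in vehicle, Crabp2 and Rara (6.98% of all genes by that tool), and 0 in BPA (1.49%). The 3 treatment-wise comparisons use separate animals, and the averaged one uses all of them. All values of p are from edgeR's quasi-likelihood test across all genes with Benjamini-Hochberg adjustment unless another tool is named.

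When those 9 libraries rich in Cdh16 were left out, the calls among the 10 genes in the averaged comparison and in stigmasterol were lost. That fit keeps 3 KO animals, 1 per treatment, each assumed to vary like the other groups, and it called 1.23% of all genes in the averaged comparison. The averaged log2 fold changes were then 0.91 for Crabp2 (adjusted p = 0.126), 0.28 for Rarg (0.236), -0.25 for Rara (0.215) and -0.26 for Stra6 (0.4), each in the direction found with all libraries.

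**Figure D2:**
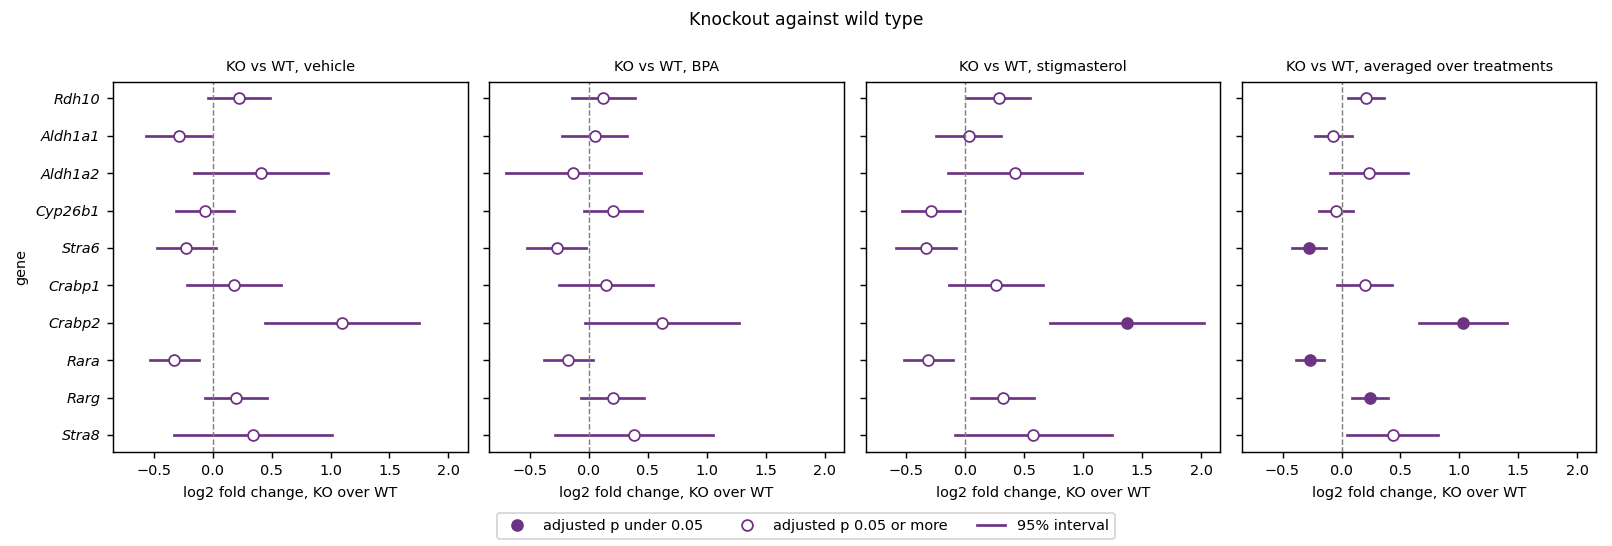
Log2 fold change of KO over WT for each gene in vehicle, BPA and stigmasterol animals and averaged over treatments, with 95% intervals; filled points have an adjusted p under 0.05. Crabp2 is filled in stigmasterol and in the average, and Rara, Rarg and Stra6 in the average alone, which says only where the threshold was passed.

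On the supply side, Stra6 (ENSMUSG00000032327, chromosome 9, 58063788 to 58153996), the membrane receptor that takes retinol from its plasma carrier, was lower in KO testes. Its level was 65.6, 53.3 and 50.7 CPM in KO vehicle animals, against 60.3, 57.1, 76 and 70.8 CPM in WT vehicle animals. In KO BPA animals it was 49.8, 43.2 and 47.4 CPM, against 56.4, 51.5, 58.3 and 60.3 CPM in WT BPA animals. KO stigmasterol animals had 49.6, 56.6 and 52.5 CPM, against 80.9, 60.5, 57.7 and 67.3 CPM in WT stigmasterol animals. All KO animals lay below all WT animals within BPA, where 10.4% of all genes had no overlap between genotypes, and within stigmasterol (17%), and KO vehicle animal T1 overlapped the WT vehicle animals. Averaged over treatments the level of Stra6 was 52.1 ± 6.29 CPM in KO and 63.1 ± 8.79 CPM in WT testes (SD, n = 9 and 12), and the log2 fold change was -0.28 ± 0.07 (SE, edgeR quasi-likelihood, adjusted p = 0.0125), with a call in all 21 fits that left out 1 animal.

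Rdh10 (ENSMUSG00000025921, chromosome 1, 16105774 to 16133734), which makes retinal in the first oxidation step, averaged 39.1 ± 5.24 CPM in KO and 33.7 ± 4.86 CPM in WT testes (SD, n = 9 and 12). The genotypes overlapped, from 31.3 to 47.6 CPM in KO and from 26.3 to 42.5 CPM in WT libraries. Its averaged log2 fold change of 0.21 ± 0.07 missed the threshold (SE, edgeR quasi-likelihood, adjusted p = 0.0643). The call was made by DESeq2 (adjusted p = 0.0468).

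The retinal dehydrogenases did not pass the test in any genotype comparison. Aldh1a1 (ENSMUSG00000053279, chromosome 19, 20601961 to 20643462), which in the mouse testis is a somatic enzyme, had 662, 629 and 796 CPM in KO vehicle animals, against 715, 839, 801 and 1040 CPM in WT vehicle animals. The log2 fold change was -0.29 ± 0.13 in vehicle (adjusted p = 0.223), 0.05 ± 0.13 in BPA (0.994) and 0.03 ± 0.13 in stigmasterol (0.927), all edgeR quasi-likelihood values with SE. WT vehicle animal T81, the library with the most Aldh1a1, also had the largest Sertoli marker sum, 7260 CPM, and the smallest meiotic marker sum, 339 CPM.

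Aldh1a2 (ENSMUSG00000013584, chromosome 9, 71215789 to 71296243), the retinal dehydrogenase of germ cells, varied 2.87-fold among animals, from 48.8 CPM in WT stigmasterol animal T78 to 140 CPM in KO stigmasterol animal T10. It averaged 103 ± 25.5 CPM in KO and 86.8 ± 22.2 CPM in WT testes (SD, n = 9 and 12; log2 fold change 0.23 ± 0.16, SE, edgeR quasi-likelihood, adjusted p = 0.361). In BPA animals its log2 fold change of -0.13 ± 0.27 had the opposite sign to those in vehicle (0.41 ± 0.27) and stigmasterol (0.42 ± 0.27), with adjusted p of 0.991, 0.398 and 0.408 in that order. The 6 groups of genotype and treatment accounted for 27.6% of its variance between libraries, against a median of 33.6% over all tested genes.

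Cyp26b1 (ENSMUSG00000063415, chromosome 6, 84571414 to 84593908), the enzyme that clears retinoic acid and shields fetal germ cells from it, averaged 317 ± 25.2 CPM in KO and 329 ± 53.2 CPM in WT testes (SD, n = 9 and 12). The averaged log2 fold change was -0.05 ± 0.07 with a 95% interval of -0.19 to 0.09 (SE, edgeR quasi-likelihood, adjusted p = 0.684). Its levels were 326, 340 and 339 CPM in KO BPA animals, against 269, 305, 294 and 295 CPM in WT BPA animals. They were 281, 298 and 296 CPM in KO stigmasterol animals, against 357, 325, 359 and 386 CPM in WT stigmasterol animals. The KO animals thus all lay above the WT animals in BPA and all below them in stigmasterol, without overlap in either (10.4% and 17% of all genes had no overlap there), but neither log2 fold change passed, 0.20 ± 0.12 in BPA (adjusted p = 0.748) and -0.29 ± 0.12 in stigmasterol (adjusted p = 0.158). The difference between those 2 genotype effects was not tested.

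Among the binding proteins, Crabp2 (ENSMUSG00000004885, chromosome 3, 87948666 to 87953376) showed the largest genotype difference of the 10 genes, at a low level. It had 3.13, 1.74 and 2.53 CPM in KO vehicle animals, against 1.71, 0.902, 1.1 and 0.878 CPM in WT vehicle animals. In KO BPA animals it was 2.06, 1.03 and 2.66 CPM, against 1.52, 1.41, 0.933 and 1.1 CPM in WT BPA animals. KO stigmasterol animals had 2.75, 2.19 and 2.21 CPM, against 0.75, 1.23, 1.02 and 0.648 CPM in WT stigmasterol animals. The groups did not overlap in vehicle (as in 16.3% of all genes) or stigmasterol (17%), and in BPA the KO animal T83 fell among the WT animals.

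The log2 fold change of Crabp2 was 1.03 ± 0.18 averaged over treatments (SE, edgeR quasi-likelihood, adjusted p = 0.000881), 2.25 ± 0.619 CPM in KO against 1.1 ± 0.319 CPM in WT testes (SD, n = 9 and 12). Within treatments it was 1.10 ± 0.31 in vehicle (adjusted p = 0.0613), 0.62 ± 0.31 in BPA (0.648) and 1.37 ± 0.31 in stigmasterol (0.0129). The averaged and stigmasterol calls were made in all 21 fits that left out 1 animal. The vehicle comparison gained a call without WT vehicle animal T66 or KO BPA animal T83, with adjusted p as low as 0.0331.

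Epididymal and efferent duct markers moved with Crabp2. Of the 8 such markers, 7 were tested and 6 were called higher in KO testes in the averaged comparison (6.85% of all genes were called higher). Their summed level was 90 to 568 CPM in KO and 42.6 to 151 CPM in WT libraries. Epcam, at 72.2 to 181 CPM in KO and 40.1 to 76.7 CPM in WT testes, made up much of the sum, and the epididymal lipocalin Lcn5 was at or near 0 throughout. In WT vehicle animal T71 Cdh16 was at 0.1 CPM, yet the sum was 55.9 CPM. Epcam was thus present where Cdh16 was nearly absent, and the sum cannot be read as epididymal RNA alone. Which cells Epcam came from was not tested. In the libraries with Cdh16 under 10 CPM, Crabp2 was at 1.74 to 2.19 CPM in the 3 KO and 0.648 to 1.71 CPM in the 9 WT animals, and the marker sum was 90 to 91.7 CPM in KO and 42.6 to 73.8 CPM in WT. The part of these markers in the Crabp2 difference was not tested beyond leaving those libraries out.

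Crabp1 (ENSMUSG00000032291, chromosome 9, 54764748 to 54773110), the binding protein made by spermatogonia in the mouse, did not pass, with 69.1 ± 10.8 CPM in KO and 60.3 ± 10.5 CPM in WT testes (SD, n = 9 and 12; log2 fold change 0.20 ± 0.11, SE, edgeR quasi-likelihood, adjusted p = 0.261). Its lowest level, 38.4 CPM, was in WT vehicle animal T81, and its highest, 84 CPM, in KO BPA animal T25. Per kb, Crabp1 exceeded Crabp2 by a ratio of 20.1 to 54.1 in KO (median 29.8) and 39.8 to 85.1 in WT libraries (median 58.2), ranges that overlapped.

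The receptors differed in opposite directions. Rara (ENSMUSG00000037992, chromosome 11, 98927818 to 98974942), the receptor that Sertoli cells use in the mouse testis, had 109, 102 and 110 CPM in KO vehicle animals, against 124, 127, 124 and 162 CPM in WT vehicle animals. In KO BPA animals it was 103, 98.9 and 107 CPM, against 123, 107, 121 and 114 CPM in WT BPA animals. KO stigmasterol animals had 89.9, 107 and 109 CPM, against 131, 112, 120 and 144 CPM in WT stigmasterol animals. Within each treatment every KO animal lay below every WT animal, by a small margin in BPA, where 10.4% of all genes had no overlap (16.3% in vehicle and 17% in stigmasterol).

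Averaged over treatments Rara was at 104 ± 6.49 CPM in KO and 126 ± 14.8 CPM in WT testes (SD, n = 9 and 12), and the log2 fold change was -0.27 ± 0.06 (SE, edgeR quasi-likelihood, adjusted p = 0.00411), called in all 21 fits that left out 1 animal. The treatment-wise values were -0.32 ± 0.10 in vehicle (adjusted p = 0.0789), -0.18 ± 0.10 in BPA (0.725) and -0.31 ± 0.10 in stigmasterol (0.0612), none of them called. DESeq2 called Rara in vehicle (adjusted p = 0.0325) and in stigmasterol (0.0264).

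Rarg (ENSMUSG00000001288, chromosome 15, 102234938 to 102257517), the receptor of spermatogonia in the mouse, was higher in KO testes, 44.2 ± 3.01 CPM against 37.4 ± 4.85 CPM in WT (SD, n = 9 and 12; averaged log2 fold change 0.24 ± 0.07, SE, edgeR quasi-likelihood, adjusted p = 0.0354). It had 42.7, 46.1 and 42.8 CPM in KO BPA animals, against 42.4, 36.2, 35.3 and 38.5 CPM in WT BPA animals. KO stigmasterol animals had 44.5, 47.4 and 43.4 CPM, against 35.4, 40.2, 37.8 and 31.3 CPM in WT stigmasterol animals. KO vehicle animals had 40.6, 49.5 and 40.7 CPM, against 41.8, 36.6, 45.7 and 28 CPM in WT vehicle animals. The genotypes separated in BPA, narrowly with 42.7 CPM as the lowest KO and 42.4 CPM as the highest WT value, and in stigmasterol, and they overlapped in vehicle. Of all genes, 10.4% had no overlap in BPA and 17% in stigmasterol. The call held in 9 of 21 fits that left out 1 animal: it was lost without any of the KO animals T10, T15, T25, T83, T90, T93 or T117 or the WT animals T61, T71, T75, T78 or T119, with an adjusted p of up to 0.0979.

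The ratio of the receptors, as Rarg over Rara in normalized counts per kb, ran from 1.34 in KO vehicle animal T110 to 1.8 in KO stigmasterol animal T10, with a median of 1.51. In WT libraries it ran from 0.629 in vehicle animal T81 to 1.34 in vehicle animal T79, with a median of 1.19. The 2 genotypes met at 1.34 and otherwise did not overlap. This ratio combines 2 genes called above in opposite directions, so its near separation adds no separate support. By itself it shows unequal change and does not say which receptor moved.

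Sertoli markers moved with Rara and against Rarg. Of 10 Sertoli markers 6 were called lower in KO testes in the averaged comparison, where 7.07% of all genes were called lower. None of the 10 was positive, against 53.3% of all genes. The summed level of these markers was 3930 to 4950 CPM in KO and 4380 to 7260 CPM in WT libraries. Of 6 differentiating spermatogonia markers 1 was called higher in the same comparison (6.85% of all genes) and 4 were positive. Over the 21 libraries, log2 CPM of Rara and of the Sertoli sum had Pearson r = 0.838, that of Rarg had -0.794 and that of Stra6 0.423. With the sum of differentiating spermatogonia markers Rara had -0.737, Rarg 0.75 and Stra6 -0.41, and with the epididymal and efferent duct sum Rara had -0.554, Rarg 0.37 and Stra6 -0.521, its largest value in size among the 12 lists. These are descriptions over libraries that share genotype and tissue composition, and the part of the markers in the receptor and Stra6 differences was not tested.

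**Figure D3:**
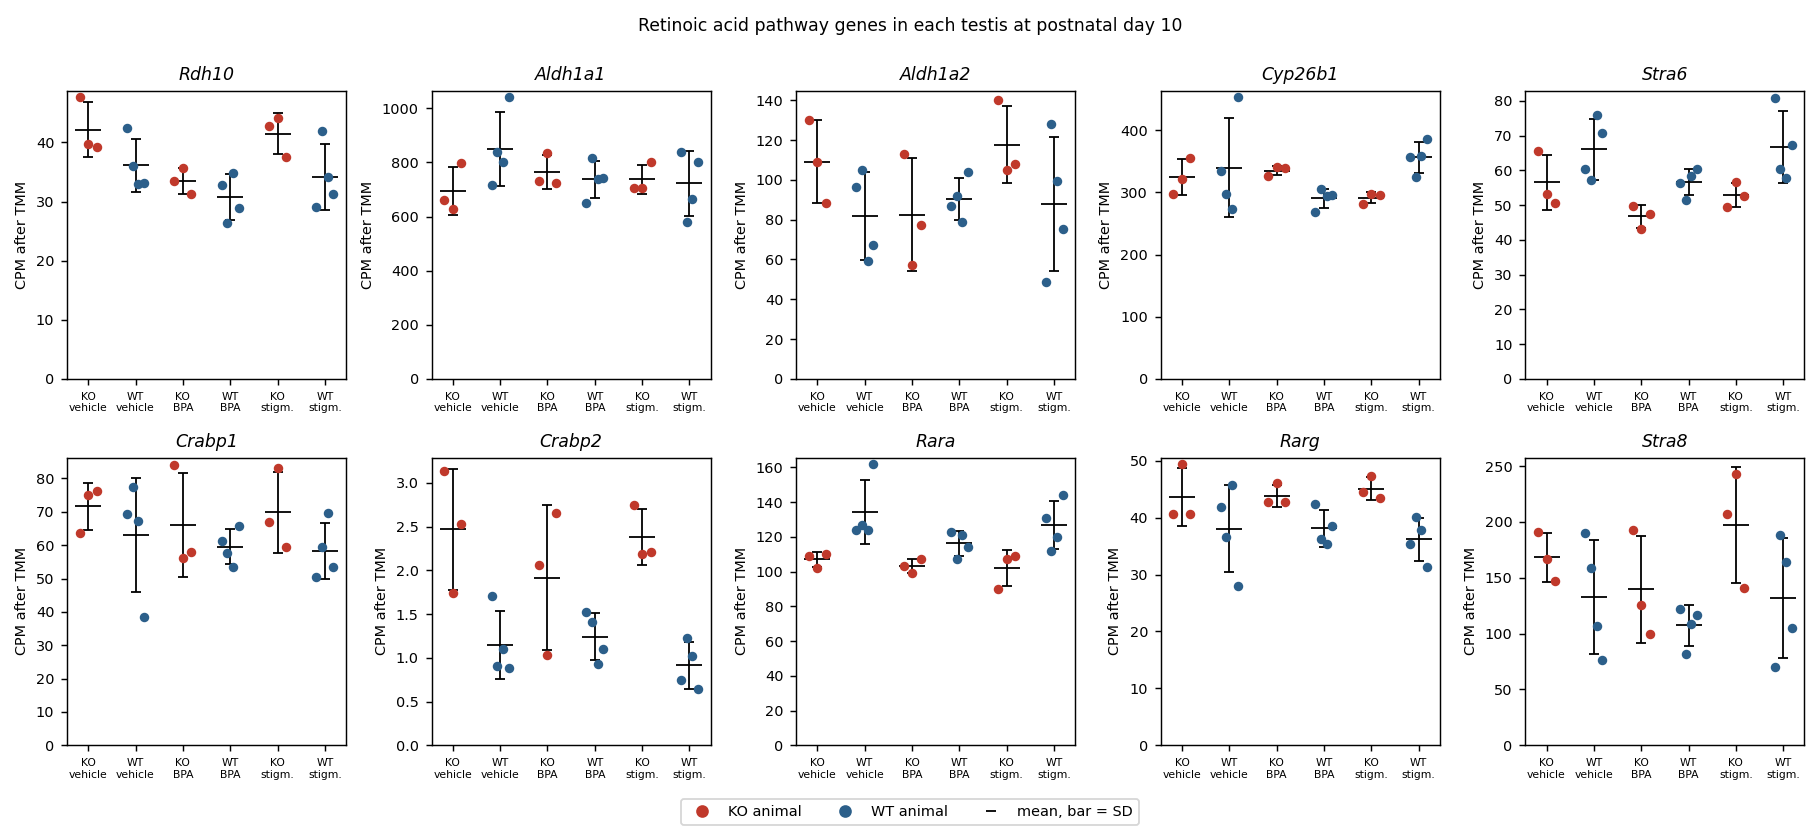
CPM of each gene after TMM normalization in each of the 6 groups, with 1 point per animal (KO red, WT blue) and the mean with SD bars. For Rara every KO animal lies below every WT animal of the same treatment, while for Stra8, Aldh1a2 and Crabp1 the genotypes overlap in every treatment.

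Stra8 (ENSMUSG00000029848, chromosome 6, 34920163 to 34939344), the germ cell gene that retinoic acid induces before meiosis, varied more between animals than between groups. It had 191, 167 and 147 CPM in KO vehicle animals, against 190, 159, 107 and 76.5 CPM in WT vehicle animals. In KO BPA animals it was 193, 126 and 99.7 CPM, against 122, 81.5 and 109 CPM in the first 3 WT BPA animals, with T74 between T61 and T60. KO stigmasterol animals had 207, 243 and 141 CPM, against 70.3, 188, 164 and 105 CPM in WT stigmasterol animals. Genotypes overlapped in all 3 treatments, and the groups accounted for 33.2% of the variance between libraries, close to the median of 33.6% over all genes.

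The averaged log2 fold change of Stra8 was 0.43 ± 0.18 with a 95% interval of 0.05 to 0.82 (SE, edgeR quasi-likelihood, unadjusted p = 0.0299, adjusted p = 0.13), and it was positive in vehicle (0.34 ± 0.32), BPA (0.38 ± 0.32) and stigmasterol (0.58 ± 0.32) without a call in any (adjusted p = 0.566, 0.909 and 0.316). Markers of meiotic prophase varied alongside it. Their sum ran from 428 to 1490 CPM in KO and from 339 to 1710 CPM in WT libraries. In the averaged comparison 0 of the 12 markers were called (13.9% of all genes), with 10 positive (53.3% of all genes). Over the 21 libraries log2 CPM had Pearson r = 0.889 between Stra8 and this sum and 0.827 between Aldh1a2 and the sum. Crabp1 had r = 0.88 with the sum of differentiating spermatogonia markers, which was 413 to 523 CPM in KO and 297 to 485 CPM in WT.

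**Figure D4:**
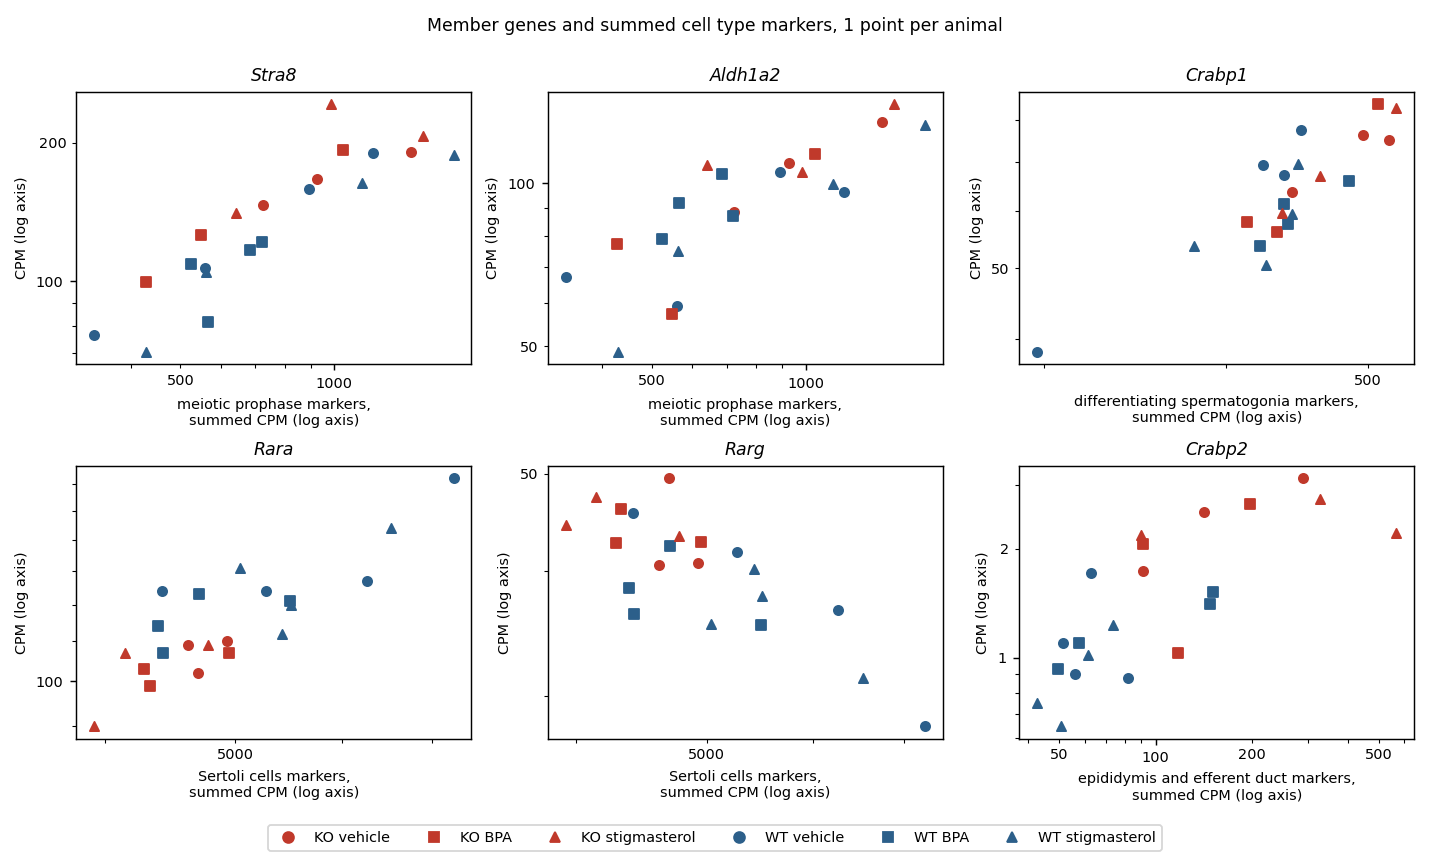
Level of a gene in CPM against the summed CPM of a cell type marker list (log axes), 1 point per animal, KO red and WT blue, with shapes for treatment. Stra8 and Aldh1a2 are plotted against meiotic prophase markers (Pearson r = 0.889 and 0.827 in log2) and Crabp1 against differentiating spermatogonia (0.88). Rara and Rarg are plotted against Sertoli markers (0.838 and -0.794). Crabp2 is plotted against the epididymal and efferent duct list (0.769), much of whose sum is Epcam.

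Among the 10 genes themselves, the closest pairs over the 21 libraries were Rdh10 with Stra8 (Pearson r = 0.82 in log2 CPM), Aldh1a2 with Stra8 (0.773), Crabp1 with Stra8 (0.758) and Stra6 with Rara (0.732). Rara with Rarg had the most negative value, -0.793, and the isoenzymes Aldh1a1 and Aldh1a2 had -0.613. The genes closest to each member were sought among 13788 tested genes with a conventional symbol and a mean of at least 1 CPM. Outside the set, those whose levels followed Stra8 most closely were Tgm1 (r = 0.974), Magea8 (0.96) and Syce2 (0.956). Syce2 is a synaptonemal complex gene of the meiotic marker list. Rara was followed most closely by Nr5a1 (0.956), the steroidogenic factor also made by Sertoli cells, Bcar1 (0.947) and Dhh (0.934), a Sertoli marker. Crabp1 was followed by Dmrtb1 (0.931), a spermatogonial regulator, Tuba3b (0.912) and Gid8 (0.893), and Crabp2 by Adam11 (0.89), Lad1 (0.885) and H2-Q1 (0.881). The closest genes reached 0.91 for Rdh10 (Fam221b), 0.903 for Aldh1a2 (Rsph10b), 0.891 for Rarg (Tube1), 0.869 for Aldh1a1 (Ifnar2), 0.866 for Cyp26b1 (Plod2) and 0.861 for Stra6 (Nucks1). All these r values are across libraries that share genotype, cell makeup and depth, and they are given without p.

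Neither treatment produced a call among the 10 genes. In BPA against vehicle 0 members were called in KO (0.0148% of all genes were called) and 0 in WT (0%), and in stigmasterol against vehicle 0 in KO (0%) and 0 in WT (0.00494%). The share for BPA in WT depended on single animals: over all genes the calls numbered 1321 without WT vehicle animal T79, 279 without WT BPA animal T60 and 15 without WT BPA animal T74, with 0 members among them, and DESeq2 called 1040 genes. DESeq2 called 0 members in each of the 4 comparisons as well. With unadjusted p under 0.05 there were 2 members for BPA in KO (4.31% of all genes), 1 for BPA in WT (18.8%) and none for stigmasterol in KO (3.85%) or WT (8.26%). The authors' deposited table has no member under an adjusted p of 0.05 in the same 4 comparisons, and the lowest adjusted p in it is 0.18, for Rara with BPA in WT. BPA and stigmasterol share the vehicle animals of each genotype.

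The members past an unadjusted 0.05 were all lower with BPA. Rdh10 had 33.5, 35.7 and 31.3 CPM in KO BPA animals, against 47.6, 39.7 and 39.2 CPM in KO vehicle animals, groups without overlap. The log2 fold change was -0.33 ± 0.14 in KO (SE, edgeR quasi-likelihood, unadjusted p = 0.024, adjusted p = 0.896) and -0.23 ± 0.12 in WT testes (adjusted p = 0.292). Stra6 likewise had all 3 KO BPA animals below the KO vehicle animals, with a log2 fold change of -0.27 ± 0.13 (unadjusted p = 0.0464, adjusted p = 0.896), and -0.22 ± 0.11 in WT (adjusted p = 0.285). Non-overlap of 3 against 3 animals occurred in 11.1% of all genes in this comparison. Rara had a log2 fold change of -0.21 ± 0.09 with BPA in WT (unadjusted p = 0.0355, adjusted p = 0.229; no overlap between the groups, as in 8.1% of all genes) and -0.06 ± 0.10 in KO (adjusted p = 0.942).

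For Stra8 the treatment values had wide intervals. With BPA the log2 fold change was -0.27 in KO (95% interval -0.99 to 0.45) and -0.31 in WT testes (-0.93 to 0.32), and with stigmasterol 0.22 in KO (-0.49 to 0.94) and -0.013 in WT (-0.64 to 0.61). Values near 0 with such intervals do not show that Stra8 was unaffected. Rarg was near 0 with BPA, at 0.008 in KO (-0.28 to 0.29) and 0.004 in WT (-0.24 to 0.25).

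**Figure D5:**
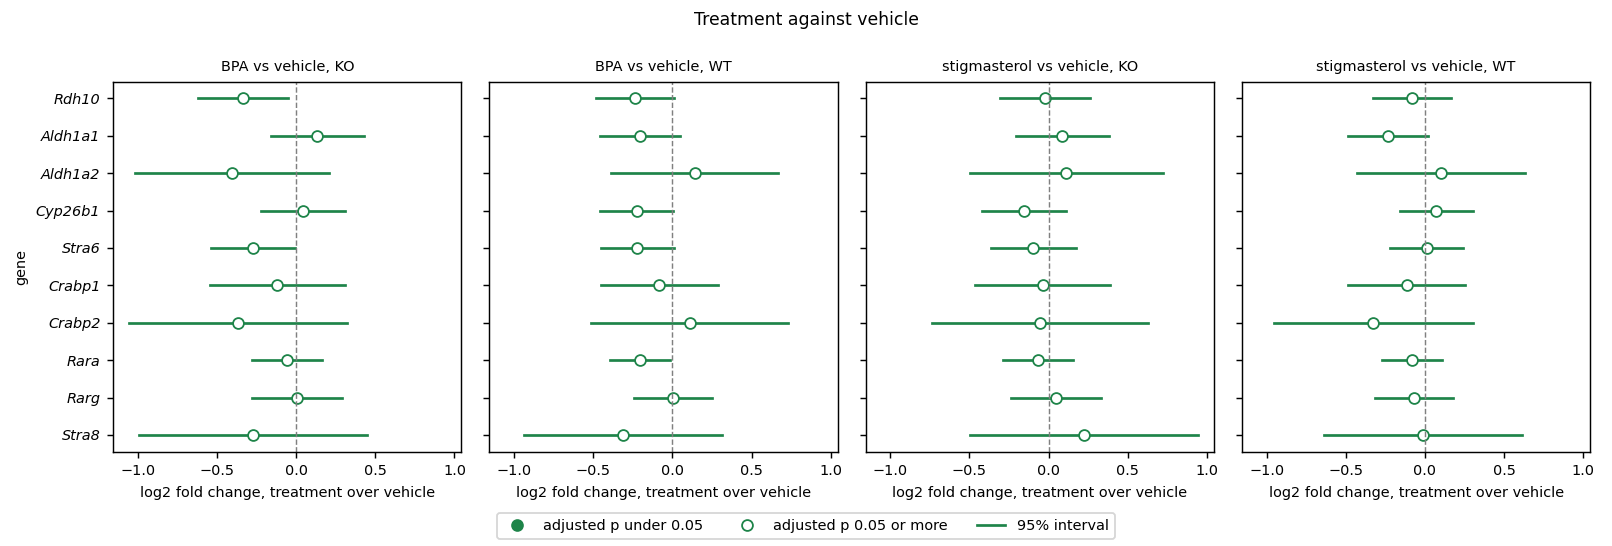
Log2 fold change of BPA or stigmasterol over vehicle for each gene within KO and within WT, with 95% intervals; open points have an adjusted p of 0.05 or more. No point is filled, and intervals are widest for Stra8, Aldh1a2 and Crabp2.

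No treatment effect on the 10 genes was shown to differ between genotypes. The interaction of BPA with genotype called 0 members (0.0148% of all genes), as did that of stigmasterol (0.00987%), with no member under an unadjusted p of 0.05 in either (8.83% and 9.16% of all genes) and 0 members by DESeq2. The largest interaction was that of Aldh1a2 with BPA, -0.54 ± 0.39 on the log2 scale (SE, edgeR quasi-likelihood, adjusted p = 0.673), its BPA value being -0.40 in KO and 0.14 in WT. Crabp2 followed at -0.475 ± 0.44 with BPA (adjusted p = 0.759), and Aldh1a1 had the opposite sign at 0.34 ± 0.18 with BPA (adjusted p = 0.596) and 0.32 ± 0.18 with stigmasterol (0.639).

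The wider pathway was covered by 5 lists with 43 other genes, of which 40 were in the table and 36 were tested. In the averaged genotype comparison 6 of the 36 were called, 4 higher and 2 lower in KO testes, against 13.9% of all genes. The median log2 fold change of the 36 was 0.07, and 0.01 over all genes. Of the 12 tested retinol and retinal oxidoreductases 3 rose and 1 fell, of 6 uptake, transport and storage genes 1 rose, of 7 response genes 1 fell, and none of 3 retinal dehydrogenase and hydroxylase genes or of 8 receptor, partner and carrier genes was called. Rxra and Rxrb, the main partners of the retinoic acid receptors, stood at 106 ± 10.2 and 104 ± 8.8 CPM (SD, n = 21), and Rarb at 1.38 ± 0.392 CPM.

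Rdh13, a mitochondrial retinol dehydrogenase family member, was at 27.5 ± 2.42 CPM in KO and 36.4 ± 2.68 CPM in WT testes (SD, n = 9 and 12), with an averaged log2 fold change of -0.40 ± 0.05 (SE, edgeR quasi-likelihood, adjusted p = 6.39e-05). Rarres1, named for its induction by a retinoid in human skin, was at 22.1 ± 2.67 CPM in KO and 41.4 ± 12.2 CPM in WT (log2 fold change -0.90 ± 0.14, adjusted p = 0.000269). Both were also called lower within vehicle, Rdh13 at -0.48 (adjusted p = 0.00749) and Rarres1 at -1.11 (0.0176), and within stigmasterol, at -0.36 (0.0256) and -0.94 (0.0238). In vehicle both calls were lost without KO animal T1, and that of Rarres1 also without KO animal T90.

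Adh1, an alcohol dehydrogenase that oxidises retinol, was at 59.9 ± 16 CPM in KO and 39.3 ± 8.36 CPM in WT testes (SD, n = 9 and 12; averaged log2 fold change 0.60 ± 0.15, SE, edgeR quasi-likelihood, adjusted p = 0.0108). Dhrs3, which returns retinal to retinol, was at 22.6 ± 3.71 CPM in KO and 18.2 ± 2.17 CPM in WT (0.32 ± 0.08, adjusted p = 0.0166). Rdh12 at 0.53 ± 0.15 (adjusted p = 0.0263) and the carotenoid-cleaving Bco2 at 0.38 ± 0.10 (0.023) were low, with Rdh12 at 1.67 ± 0.286 CPM in KO and 1.14 ± 0.308 CPM in WT and Bco2 at 1.29 ± 0.194 CPM in KO and 1.01 ± 0.209 CPM in WT (SD, n = 9 and 12). Within stigmasterol Adh1 (0.89, adjusted p = 0.0398) and Dhrs3 (0.57, 0.0223) were higher in KO. The averaged call of Bco2 was lost without KO animal T1, T10 or T83, and that of Rdh12 without KO animal T90 or T93.

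Without the 9 libraries with high Cdh16, the genotype calls of the pathway genes were lost, in a fit that keeps 1 KO animal per treatment. Few genes of any kind were called in that fit, so the loss does not set the pathway genes apart. Adh1 then had an averaged log2 fold change of 0.305 (adjusted p = 0.53) and Dhrs3 of 0.07 (0.833), while Rdh13 had -0.40 (0.0886), Rarres1 -0.90 (0.0779), Rdh12 0.59 (0.422) and Bco2 0.38 (0.366). In the stigmasterol comparison the 4 calls of pathway genes dropped to 0 without KO animal T10, to 1 without KO animal T93 and to 0 without WT animal T119. Over the 21 fits that left out 1 animal the stigmasterol log2 fold changes ran from -1.08 to -0.74 for Rarres1, -0.45 to -0.26 for Rdh13, 0.45 to 0.66 for Dhrs3 and 0.63 to 1.11 for Adh1, with calls in 17, 18, 17 and 15 of the fits in that order.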

How the data were processed

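Total RNA of 21 testes was sequenced on 1 flowcell with a library kit that is not strand-specific, per the labels' protocols. The submitters' processing notes name mm10, TopHat2 2.0.10, Bowtie2 2.1.0, Bowtie and CASAVA 1.8.2; the counter was not given in the sources used here. Raw counts per gene, deposited by the authors as whole numbers, entered every test. The deposited normalized signal, also given per kb by the authors, ranked genes by level. The authors' log2 fold changes and p-values, deposited for the 4 treatment comparisons, are quoted where named.

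Counts were fitted in R 4.3.3 with edgeR 4.0.16: TMM, filterByExpr (minimum count 10, minimum total 15), 1 mean per group over all 21 animals, quasi-likelihood tests for 10 comparisons, two-sided, adjusted p under 0.05 over all genes. SE is the absolute log2 fold change over the square root of F. CPM are after TMM, and correlations used log2 CPM with prior count 2. Alternatives used DESeq2 1.42.0, limma-voom 3.58.1, other factors, no filter, the compared groups alone, or left out 1 animal. The edgeR, limma-voom and DESeq2 fits of the averaged genotype comparison were tested on simulated data. Named genes were all 10 members and called genes of the pathway lists (at most 6 per comparison). The 3 genes most like each member (conventional symbol, mean of at least 1 CPM) were also named. Conventional symbols leave out Gm numbers and Rik, pseudogene, Ensembl and clone names. Members and lists were chosen with earlier results of these data known. Replicates differed by a chi-square per degree of freedom of 9.19 to 75.8 over 27 pairs. The p-values treat animals as independent.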

Additional observations from a re-analysis of the deposited data

Results flagged for a closer look

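In the WT vehicle group, Rara in animal T81 stood far from the other animals at 162 CPM, against 124 to 127 CPM in T66, T71 and T79. Its gap to the next animal was large for the range of a group of 4 by Dixon's criterion, in 1 of 30 groups of 4 animals examined for the 10 genes, where chance alone flags about 1 in 20. The same library had the highest Aldh1a1 (1040 CPM) and Cyp26b1 (453 CPM) and the lowest Crabp1 (38.4 CPM) and Rarg (28 CPM) of all 21, with Sertoli markers at 7260 CPM and meiotic markers at 339 CPM.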

How the results depend on the processing

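Rescaling with relative log expression or upper-quartile factors changed no call of the 10 genes. In the genotype comparisons the median shift in log2 fold change over all genes was then at most 0.011 in size. The largest median shift under any setting examined was -0.0148, in BPA without the 9 Cdh16-rich libraries. DESeq2 called 2 members in vehicle (6.98% of all genes) and 2 in stigmasterol (10.9%). With the 9 Cdh16-rich libraries left out, a choice made with results known, the member calls in stigmasterol and in the averaged comparison were lost. Few genes of any kind were called in that fit, which keeps 1 KO animal per treatment. The cause was not tested beyond the loss of 6 of 9 KO animals. Leaving out 1 animal gave 0 to 1 members in vehicle (242 to 986 of all genes), 1 to 3 in stigmasterol (637 to 1773) and 3 to 5 in the average (2171 to 3239). In stigmasterol it gave 3 without WT vehicle animal T81, the fit with 1773 of all genes, and 2 without WT stigmasterol animal T98. It gave 0 in every other comparison. Without the filter on low counts Rarg had an averaged log2 fold change of 0.24 (adjusted p = 0.0558) and Bco2 of 0.37 (0.0521). With limma-voom the call of Adh1 in stigmasterol was lost (0.89, adjusted p = 0.0505), and no call of the 10 genes changed. Signs were compared across fits only for a chosen set of values. It held the genotype comparisons of the 10 genes and the genotype calls of pathway genes. It also held BPA against vehicle for Rdh10, Stra6 and Rara, both treatments for Stra8, and the BPA interaction of Aldh1a1 and Aldh1a2. Within this set the sign changed without the Cdh16 libraries for uncalled values: Cyp26b1 in vehicle to 0.08, Aldh1a1 in BPA to -0.028 and in stigmasterol to -0.043, Aldh1a2 in BPA to 0.295, and BPA against vehicle in KO for Rara to 0.012 and Stra8 to 0.205. Leaving out 1 animal turned the sign of 7 uncalled values of the same set, given as ranges over the fits: Cyp26b1 in vehicle (-0.156 to 0.092), Crabp1 in vehicle (-0.011 to 0.296) and BPA (-0.061 to 0.248), Aldh1a1 in BPA (-0.021 to 0.102) and stigmasterol (-0.061 to 0.111), Aldh1a2 in BPA (-0.422 to 0.069) and Stra8 with stigmasterol against vehicle in WT (-0.233 to 0.209). The other treatment and interaction values were not compared for sign. All-gene calls differed more between tools, with DESeq2 calling 1413 genes in vehicle, 302 in BPA and 2207 in stigmasterol between genotypes. Leaving out 1 animal gave 242 to 986 genes in vehicle (lowest without KO animal T1, highest without WT animal T79), 108 to 182 in BPA (lowest without KO animal T117) and 637 to 1773 in stigmasterol (lowest without KO animal T93). Fits with the compared groups alone called 185, 110 and 327 genes in the same order, and none of the pathway genes in vehicle or stigmasterol. No paired analysis was possible because the animals carry no number shared between groups. Depth limits Crabp2 in particular.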
